A study of Mus musculus with 6 samples.

Results

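The 93 genes described here carry symbols of the respiratory chain and ATP synthase of the mouse, 80 from the nucleus and 13 from the mitochondrial genome, out of 19086 genes listed. Complexes were also assigned by symbol, so a gene need not be a subunit of the complex it is counted in. They were chosen by symbol alone: the Nduf a, b, c, s and v subunits of complex I, Sdha to Sdhd of complex II, the Uqcr genes of complex III, Cox4 to Cox8 of complex IV, the Atp5 genes of complex V, and the mt-Nd, mt-Cytb, mt-Co and mt-Atp genes. Complex I gave 36 nuclear and 7 mitochondrial genes, complex II 4 nuclear genes, complex III 8 and 1, complex IV 15 and 3, and complex V 17 and 2. Pseudogene rows with -ps in their symbol were left out.

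RNA was sequenced from haematopoietic stem cells of C57BL/6 mice, sorted as CD150+ CD48- LSK cells, an immature bone marrow population that lacks lineage markers and carries Sca-1 and Kit. The cells came from lethally irradiated CD45.1 recipients that had received bone marrow of CD45.2 donors 2 months earlier, so every library is from transplanted marrow. The donors were either Zfp521fl/fl, in which the gene of the zinc finger protein Zfp521 is flanked by loxP sites, or Zfp521-CKO, its conditional knockout, with 3 libraries each. The Zfp521fl/fl libraries carry the names WT-1 to WT-3 and the Zfp521-CKO libraries KO-1 to KO-3, which are used here. The labels name no Cre driver, do not say whether the sort selected CD45.2 cells, and do not say whether the libraries of a group came from separate recipients, so the spread between libraries may be technical.

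Oxidative phosphorylation passes electrons from NADH through complex I, or from succinate through complex II, to coenzyme Q, and on through complex III, cytochrome c and complex IV to oxygen. The protons pumped by complexes I, III and IV drive ATP synthase, complex V. Mammals keep a small set of core membrane subunits on the mitochondrial genome, transcribed as long polycistronic RNAs from both strands, while all other subunits, and all of complex II, come from nuclear genes. Haematopoietic stem cells are known for relying little on respiration at rest and for using it more when they divide and differentiate.

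The values are log2(normalized count + 1) as deposited, and are given for WT-1, WT-2, WT-3 and KO-1, KO-2, KO-3 in that order. Nearly all of them, 99.7% of 61139 values above 0 at a tolerance of 0.001 read, were whole multiples of the value of 1 read in their library, which gave back the reads counted per gene. Depth ranged 17.8-fold, from 3162574 reads in KO-3 to 56435472 in KO-1, with 7483083 to 10724405 in the WT libraries and 30730910 in KO-2. Reads of the targeted gene were not lower in the KO libraries. Zfp521 stood at 0, 2.74 and 0 in the WT and 7.94, 5.33 and 0 in the KO libraries. The groups overlapped (limma adjusted p 0.672), and the genotype of each library is given as labelled. KO-3 also stood apart from the other KO libraries in its cell type markers. Granulocyte and neutrophil markers took 15.1%, 12.4% and 13.9% of reads in the WT libraries, 0.0417% in KO-1, 1.46% in KO-2 and 12.7% in KO-3, and stem cell markers took 0.0229%, 0.232% and 0.0414% in the WT libraries and 0.455%, 0.313% and 0.0301% in the KO libraries. The part of depth and of other cells in the results that follow was not tested, and in sorted bulk samples fewer cells of a type and less RNA per cell cannot be told apart.

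Respiratory chain transcripts were a regular part of every library. Nuclear-encoded members took 2.11%, 2.21% and 1.66% of reads in the WT libraries and 3.13%, 2.36% and 1.94% in the KO libraries, a mean of 1.99% ± 0.29 against 2.48% ± 0.61 (SD, n = 3). KO-1 held the highest share and WT-3 the lowest, and the groups overlapped. Mitochondrial-encoded members took 1.44%, 1.65% and 1.11% in the WT and 2.66%, 1.89% and 1.18% in the KO libraries, a mean of 1.40% ± 0.27 against 1.91% ± 0.74 (SD, n = 3). These groups overlapped as well, with KO-3 between the WT values and KO-1 above them all.

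The ratio of mitochondrial-encoded to nuclear-encoded reads, which no scaling of a library can change, was 0.681, 0.748 and 0.665 in the WT libraries and 0.850, 0.802 and 0.607 in the KO libraries. With the shifted values described further on put back on whole reads, KO-1 and KO-2 lay above all WT libraries and KO-3 lay below them. On the log2 scale the group means were -0.52 ± 0.09 and -0.42 ± 0.26 (SD, n = 3), a difference of 0.10 that was smaller than the spread of the KO libraries. It ranged from 0.00 without KO-1 to 0.24 without KO-3. Much of the ratio came from mt-Co1, which held 28.8%, 24.0% and 0% of the mitochondrial-encoded reads in the WT and 31.0%, 36.7% and 0.581% in the KO libraries. Without that gene the log2 ratio was -1.04, -0.82 and -0.59 in the WT and -0.77, -0.98 and -0.73 in the KO libraries, and the order of KO-1 and KO-2 against the WT libraries was lost. The mitochondrial ribosomal RNAs took 1.78%, 4.58% and 4.51% of reads in the WT and 0.819%, 4.71% and 5.12% in the KO libraries, so KO-1, with the highest share of mitochondrial messenger RNA, had the lowest share of mitochondrial ribosomal RNA.

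**Figure D1:**
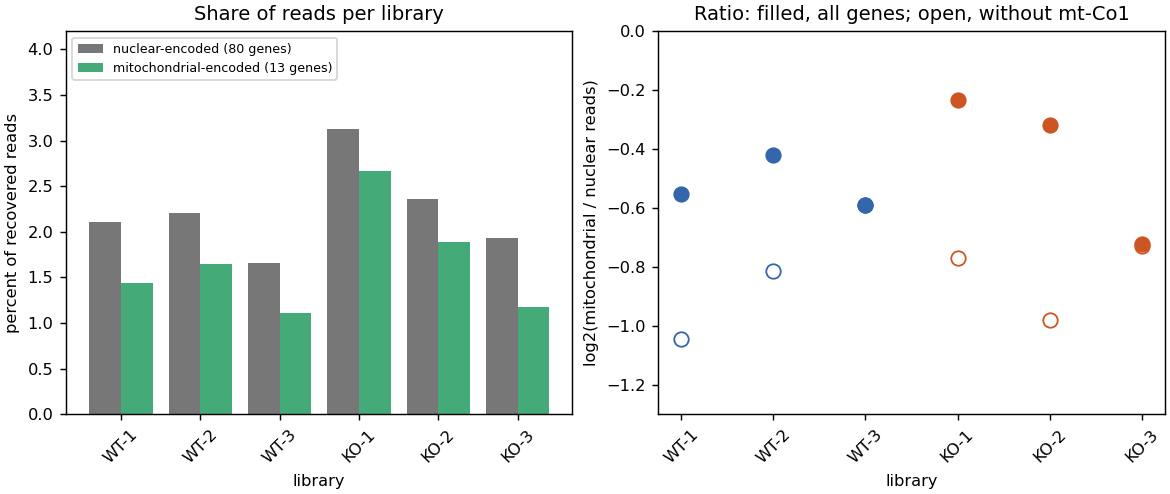
Left, percent of recovered reads (y axis) taken by the 80 nuclear-encoded (grey bars) and 13 mitochondrial-encoded (green bars) members in each library (x axis). Right, log2 ratio of mitochondrial to nuclear reads per library with all genes (filled) and without mt-Co1 (open). KO-1 has the tallest bars, at 3.13% and 2.66%, and KO-3 the lowest ratio with all genes, at -0.72.

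The members were detected in more libraries than most genes, a comparison that was not matched on level. Reads were present in all 6 libraries for 70 of the 93 members, or 75.3% (60 nuclear and 10 mitochondrial), against 3140 of 19086 genes, or 16.5%. Members above 0 numbered 89, 83 and 81 in the WT and 93, 92 and 84 in the KO libraries, while genes above 0 numbered 10091, 6134 and 7487 in the WT and 16674, 14304 and 6449 in the KO libraries. At the depth of KO-3, 88.5, 81.5 and 80.5 members would be expected above 0 in the WT libraries and 92.8 and 91.4 in KO-1 and KO-2, against 84 in KO-3 itself. WT-2 and WT-3 thus showed fewer members than the shallower KO-3. Over all genes, 5606 would be expected above 0 in WT-2 and 7021 in WT-3 at that depth, against 6449 in KO-3. WT-2 was thus short of genes in general, WT-3 was not, and the small gaps in members were not tested.

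Single members dropped out of single libraries. Values more than 4 log2 units, or 16-fold, below the member's own median over the 6 libraries were counted for each library. There were 3, 25 and 13 such values in the WT libraries and 0, 0 and 14 in the KO libraries, spread over 40 members. WT-2 held the most, and the 2 deepest libraries held none. Complex II was touched in all 4 of its members, with 6 low values, and complex I in 20 of 36 members, with 26. Complex III had 5 low values in 3 of 8 members, complex IV 5 in 3 of 15, and complex V 8 in 7 of 17. Among the 13 mitochondrial-encoded genes there were 5 low values in 3 genes. All these counts are on the values as deposited. With the shifts described further on taken out, mt-Nd4l in WT-2 would be low as well, at 1.53 against 9.57 to 11.71 in the other libraries.

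**Figure D2:**
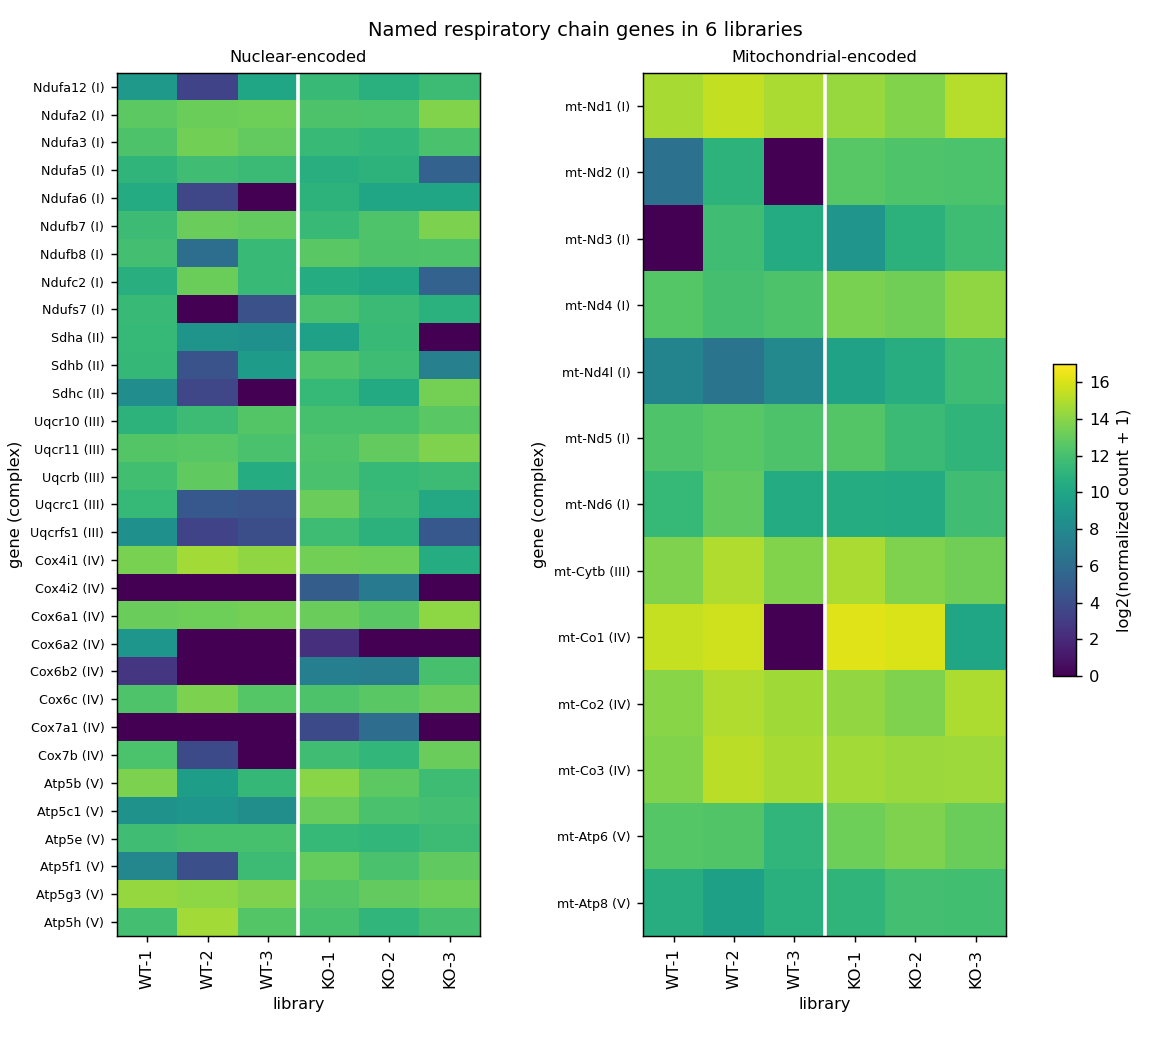
Level of 44 named members, nuclear on the left and the 13 mitochondrial on the right (rows, complex in brackets), in each library (columns), as log2(normalized count + 1) from 0 (dark) to 17 (yellow). A white line parts the WT from the KO libraries. Dark cells are scattered over WT-2, WT-3 and KO-3, the libraries with 25, 13 and 14 low values over all 93 members.

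NRF1, the ETS factor GABPA and YY1 are known regulators of nuclear respiratory genes, so the promoters were searched for their letters. RefSeq windows on GRCm38.p6, from 250 bases before to 50 bases after the start, were found for 64 of the 80 nuclear members, in 69 windows. The letters searched on both strands were GCGCATGCG for NRF1, CCGGAAG for ETS factors, AAGATGGC for YY1 and CCAAT for NFY, and no motif contains another. The NRF1 letters stood in 8 member windows (11.6%, against 1.75% of all 32851 windows), the ETS letters in 16 (23.2% against 8.86%), the YY1 letters in 9 (13% against 2.75%) and the NFY letters in 29 (42% against 37.4%). A match describes the sequence and shows no bound site. The windows of 3 members are shown, with the NRF1, ETS and YY1 letters in capitals and each written on the strand of its gene: Cox6a1 (chr5:115348909-115349208, minus strand) as one of the steadiest members, Uqcrc1 (chr9:108936398-108936697, plus strand) as one of the most variable among those with reads in all 6 libraries, and Ndufb8 (chr19:44555393-44555692, minus strand) as a gene whose groups did not overlap.
Cox6a1: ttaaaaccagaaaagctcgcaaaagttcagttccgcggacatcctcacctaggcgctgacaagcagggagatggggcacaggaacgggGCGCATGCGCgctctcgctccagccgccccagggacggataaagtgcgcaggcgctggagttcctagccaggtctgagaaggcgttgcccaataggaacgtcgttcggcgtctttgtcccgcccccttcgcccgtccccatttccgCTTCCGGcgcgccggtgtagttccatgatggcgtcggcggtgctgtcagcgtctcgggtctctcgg
Uqcrc1: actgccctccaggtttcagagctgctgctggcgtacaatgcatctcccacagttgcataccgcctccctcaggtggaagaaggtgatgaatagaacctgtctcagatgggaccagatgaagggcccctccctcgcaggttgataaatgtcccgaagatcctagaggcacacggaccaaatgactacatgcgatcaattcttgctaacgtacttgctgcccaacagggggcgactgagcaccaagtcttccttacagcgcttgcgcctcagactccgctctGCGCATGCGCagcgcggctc
Ndufb8: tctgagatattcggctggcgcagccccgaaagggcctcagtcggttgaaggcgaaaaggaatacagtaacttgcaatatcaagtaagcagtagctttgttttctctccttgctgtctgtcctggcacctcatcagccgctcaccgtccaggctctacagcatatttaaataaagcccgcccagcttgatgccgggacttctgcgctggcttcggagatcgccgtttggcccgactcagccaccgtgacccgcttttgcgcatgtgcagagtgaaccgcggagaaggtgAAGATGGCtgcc
The Cox6a1 window held both the NRF1 and the ETS letters, the Uqcrc1 window the NRF1 letters, and the Ndufb8 window the YY1 letters shortly after the start.

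Between the groups as labelled, the whole table was fitted with limma on the deposited values (16436 genes with a mean normalized count of at least 1, all 93 members among them), with Benjamini-Hochberg adjustment and n = 3 libraries a group. No gene passed an adjusted p of 0.05 (0% of genes called), and the smallest adjusted p of any gene or member was 0.613. Before adjustment 917 genes had a p under 0.05, of which 836 lay higher and 81 lower in the KO libraries, and voom on the recovered reads called 164 genes (0.998%) after adjustment, none of them a member. Of the members 12 had a p that small before adjustment, 10 of them higher and 2 lower in the KO libraries, beside 5.09% of all genes higher and 0.493% lower. The 10 higher ones include mt-Nd4l and mt-Nd4, which hold shifted values described further on. With the shifted values put back on whole reads, 10 members had such a p, 8 higher and 2 lower, beside 5.45% of all genes. The members' count of 12 fell to 7 without WT-3, 4 without KO-1 and 5 without KO-2. It was 6 of 70 members in a fit on genes with reads in all 6 libraries. The share of all genes with a p that small moved too. It went from 5.58% to 4.16%, 3.01% and 3.73%, and to 8.34% of genes with reads in all 6 libraries. After quantile normalization the split over all genes was 354 higher and 197 lower.

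Leaving out KO-3 changed the calls. Without it 2509 genes passed the adjusted threshold (15.1% higher and 0.201% lower), and so did 5 of the 93 members, Atp5c1, Cox6b2, Atp5s, Cox4i2 and Cox7a1, all of them higher in KO-1 and KO-2. Of these, Cox4i2 and Cox7a1 had no WT reads and passed the filter on low values through the KO libraries alone. Cox6b2 and Atp5s had at most 5 reads in a WT library, so for these 4 a lower value in the KO libraries could hardly have been measured, and nothing is read from their direction. Atp5s, a coupling factor of the ATP synthase, stood at 2.07, 2.26 and 0 in the WT and 8.24, 8.92 and 0 in the KO libraries. With libraries weighted by their fit, which gave KO-3 a weight of 0.239 against 0.816 to 2.11 for the others, 1660 genes (10.1%) and the members Atp5c1 and Cox4i2 passed. Both counts were smaller shares of the members than of all genes tested, and the difference in share was not tested.

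The median fitted difference, KO minus WT, was 0.53 over the 80 nuclear-encoded members (47 above 0, 33 below) and 1.27 over the 13 mitochondrial-encoded ones (7 above, 6 below), against 1.63 over all genes tested. Putting the shifted values described further on back on whole reads brought the mitochondrial median to 0.61. The value over all genes shows how far the table as a whole leans toward the KO libraries, and it moved to 0.91 when libraries were scaled to one total and to 0.22 after quantile normalization. It also rests on 4688 genes listed at 0 in all WT libraries and 505 in all KO libraries. With such groups set to a floor of 3 reads per library, the median of all genes was 0.61, while those of the nuclear and mitochondrial members stayed at 0.53 and 1.27, since only Cox4i2 and Cox7a1 were involved. In the genes with reads in all 6 libraries the medians were 0.10 for 60 nuclear members, -0.12 for 10 mitochondrial members and 0.03 for all 3140 genes. Single libraries moved these medians. The nuclear one was 0.18 without WT-2, 0.25 without KO-1 and 1.07 without KO-3, and the mitochondrial one -0.40 without WT-1 and 0.03 without WT-3. By complex the nuclear medians were 0.40 for I, 0.71 for II, 0.88 for III, 0.03 for IV and 1.32 for V.

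The groups did not overlap for 17 members. The KO libraries were all higher for 11 (7.17% of all genes tested) and all lower for 6 (2.05%). With reads in all 6 libraries the counts were 8 higher and 6 lower of 70 members, against 8.41% and 7.13% of genes.

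**Figure D3:**
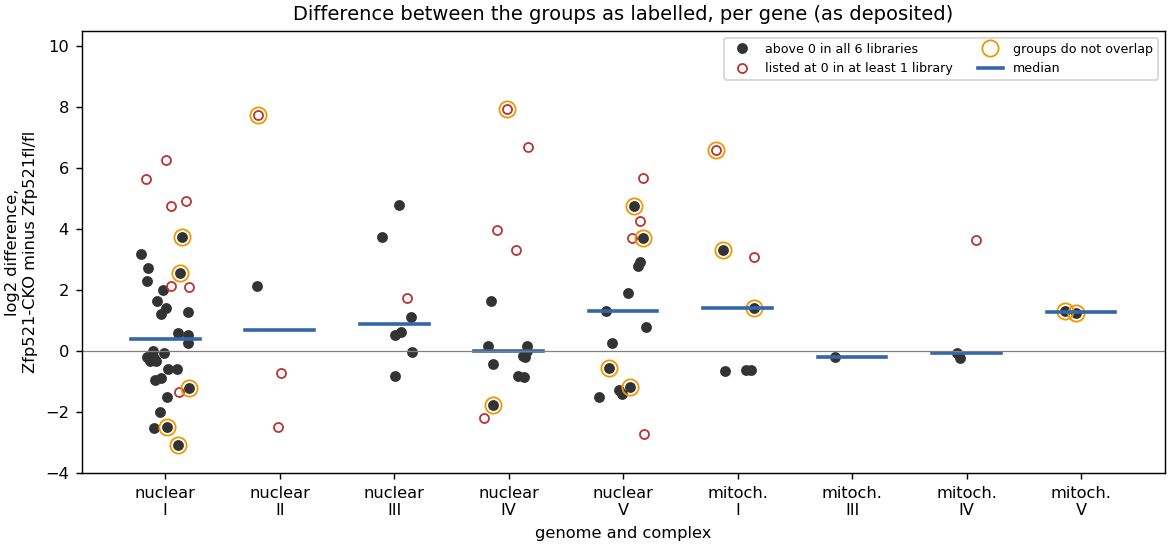
Fitted log2 difference, KO minus WT (y axis), of every member by genome and complex (x axis), filled for genes above 0 in all 6 libraries and open for genes listed at 0 in at least 1. Rings mark the 17 members whose groups do not overlap and bars mark medians. The largest differences are mostly open points, and the medians lie between -0.18 and 1.44.

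Complex I takes electrons from NADH, and its conserved core of flavin and iron-sulfur subunits is surrounded by accessory subunits. Before adjustment 1 of its 36 nuclear genes had a p under 0.05, higher in the KO libraries. That gene, Ndufs7, which encodes a core iron-sulfur subunit next to the coenzyme Q site, stood at 11.48, 0 and 4.24 in the WT and 12.10, 11.57 and 10.88 in the KO libraries. It was low in WT-2 and WT-3 only, WT-1 overlapped the KO libraries, and the difference was 6.28 ± 2.58 (SE; limma p 0.0331, adjusted 0.613). Ndufa6, an accessory subunit, had a like profile at 10.49, 3.63 and 0 in the WT and 11.00, 9.98 and 10.08 in the KO libraries.

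The 5 nuclear complex I genes with separate groups encode accessory subunits. Ndufa12 stood at 9.21, 3.39 and 10.09 in the WT and 11.54, 10.77 and 11.64 in the KO libraries. Ndufb8, a membrane arm subunit, stood at 11.93, 6.11 and 11.43 in the WT and 12.63, 12.27 and 12.30 in the KO libraries. Both were highest in the KO libraries, and in both the distance was set by WT-2. The differences were 3.75 ± 1.83 and 2.58 ± 1.44 (SE), with limma adjusted p 0.613 in each case. Ndufa5, Ndufc2 and Ndufa3 had separate groups in the other direction. Ndufa5 stood at 11.14, 11.78 and 11.56 in the WT and 10.75, 10.96 and 5.32 in the KO libraries. Ndufc2 was at 10.68, 13.17 and 11.45 in the WT and 10.55, 10.18 and 5.32 in the KO libraries. For Ndufa3 the values were 12.23, 13.38 and 12.90 in the WT and 11.54, 11.23 and 12.11 in the KO libraries. Ndufa5 and Ndufc2 were mainly low in KO-3, whereas no KO library stood apart for Ndufa3. The difference of Ndufa3 was -1.21 ± 0.72 (SE; limma adjusted p 0.616).

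By mean normalized count, not divided by length, Ndufa2 and Ndufb7 were the highest nuclear genes of complex I. Ndufa2 stood at 12.70, 13.18 and 13.27 in the WT and 12.25, 12.16 and 13.75 in the KO libraries. Ndufb7 stood at 11.63, 13.12 and 12.89 in the WT and 11.54, 12.35 and 13.63 in the KO libraries. The groups overlapped in both, and the SDs over the 6 libraries were 0.62 and 0.84. Ndufa4, counted here by its symbol and known today as a subunit of complex IV, had means of 12.19 ± 0.74 (SD) in the WT and 12.20 ± 0.37 in the KO libraries, with n = 3.

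Complex II, succinate dehydrogenase, is built from the flavoprotein Sdha, the iron-sulfur protein Sdhb and the membrane anchors Sdhc and Sdhd. Sdhc stood at 8.35, 3.63 and 0 in the WT and 11.38, 10.41 and 13.47 in the KO libraries, from 307, 6 and 0 reads in the WT and 16531, 4377 and 2341 in the KO libraries. Every KO library was above every WT library, and the fitted difference was 7.76 ± 2.33 (SE; limma p 0.00657, adjusted 0.613). The other subunits had overlapping groups. Sdhd, the partner anchor, stood at 9.88, 3.39 and 10.46 in the WT and 11.55, 10.06 and 0 in the KO libraries. Sdha was at 11.38, 8.82 and 8.52 in the WT and 9.72, 11.52 and 0 in the KO libraries. Sdhb had 11.34, 4.32 and 9.40 in the WT and 12.30, 11.74 and 7.42 in the KO libraries. KO-3 had no reads of Sdha and Sdhd and the highest value of Sdhc, so the subunits of this 4-protein complex ran apart within that library.

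Complex III passes electrons from coenzyme Q to cytochrome c, with Uqcrfs1 as its Rieske iron-sulfur protein and Uqcrc1 and Uqcrc2 as large core proteins. Uqcrc1 stood at 11.36, 4.68 and 4.51 in the WT and 13.14, 11.57 and 10.28 in the KO libraries, a difference of 4.81 ± 1.99 (SE; limma p 0.0337, adjusted 0.613). WT-2 and WT-3 were low, while WT-1 lay between KO-3 and KO-2. Uqcrfs1 stood at 8.55, 3.39 and 4.08 in the WT and 11.70, 10.92 and 4.66 in the KO libraries, low in WT-2, WT-3 and KO-3. Uqcrc2 was listed at 0 in WT-2 and KO-3, with 4.17, 0 and 12.07 in the WT and 11.24, 10.28 and 0 in the KO libraries. The small subunits Uqcr11 and Uqcr10 varied little, with overlapping groups of n = 3. Uqcr11 had means of 12.36 ± 0.24 (SD) in the WT and 12.99 ± 0.69 in the KO libraries. Uqcr10 had means of 11.71 ± 0.73 (SD) in the WT and 12.25 ± 0.36 in the KO libraries.

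Complex IV, cytochrome c oxidase, reduces oxygen. The nuclear gene of the complex with the highest mean normalized count, not divided by length, was Cox4i1. Cox4i1, the isoform of subunit 4 found in most tissues, stood at 13.61, 14.64 and 14.16 in the WT and 13.38, 13.24 and 10.53 in the KO libraries. All KO values were below all WT values, KO-3 by far the most, and the difference was -1.76 ± 0.77 (SE; limma p 0.0444, adjusted 0.613). Without KO-3 it was -0.83. Cox7b, a small membrane subunit, stood at 12.18, 3.84 and 0 in the WT and 11.79, 11.23 and 13.15 in the KO libraries, with 7 reads in WT-2, 0 in WT-3 and 1863 in KO-3, a difference of 6.72 ± 2.66 (SE; limma p 0.0281, adjusted 0.613). WT-1 lay within the range of the KO libraries.

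The steadiest member of all, Cox5b, was in complex IV. Cox5b, a subunit on the matrix side, lay between 11.81 in WT-1 and 12.23 in KO-1, an SD of 0.18 over the 6 libraries. Cox6b1 and Cox6a1 had SDs of 0.40 and 0.49 and Cox8a of 0.50. Their groups overlapped, and these values came from libraries that differ 17.8-fold in depth.

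The isoforms that follow are known from other tissues, and all of them were at 0 in WT-2 and WT-3. The lung isoform Cox4i2 had 0 reads in each WT library and 197, 392 and 0 reads in the KO libraries, and the heart and muscle isoform Cox7a1 had 0 reads in each WT library and 83, 218 and 0 in the KO libraries. Cox6a2, also of heart and muscle, had 449, 0 and 0 reads in the WT and 26, 0 and 0 in the KO libraries. The testis isoform Cox6b2 had 5, 0 and 0 reads in the WT and 1021, 448 and 873 in the KO libraries, which gave 2.66, 0 and 0 in the WT and 7.37, 7.14 and 12.05 in the KO libraries on the log2 scale. KO-3 was thus the highest library for Cox6b2 though it is the shallowest, and the fitted difference was 7.97 ± 2.56 (SE; limma p 0.0099, adjusted 0.613).

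Complex V makes ATP in a catalytic head of alpha and beta subunits turned by the gamma subunit and a ring of c subunits, held by a peripheral stalk. Atp5c1, the gamma subunit, had the smallest p of all members. It stood at 8.65, 8.90 and 8.40 in the WT and 13.05, 12.12 and 11.94 in the KO libraries, with means of 8.65 ± 0.25 (SD) in the WT and 12.37 ± 0.60 in the KO libraries. WT-2 and KO-3 were the closest libraries of the groups, with no overlap, and the difference was 3.72 ± 1.07 (SE; limma p 0.00506, adjusted 0.613). It ranged from 3.38 to 3.94 with each library left out in turn. The adjusted p was 0.0285 without KO-3 and 0.0468 with library weights, and lay between 0.170 and 0.746 under the other settings.

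Atp5f1, the b subunit of the peripheral stalk, stood at 7.85, 4.18 and 11.63 in the WT and 12.99, 12.09 and 12.85 in the KO libraries. WT-2 was lowest and WT-3 came close to the KO values, with a difference of 4.76 ± 1.71 (SE; limma p 0.0176, adjusted 0.613). Atp5g3, one of the genes for the c subunit of the ring, went the other way, at 14.32, 14.12 and 13.69 in the WT and 12.44, 12.95 and 13.24 in the KO libraries. The difference was -1.17 ± 0.51 (SE; limma p 0.0429, adjusted 0.613), and no library was far from its group. Atp5e, the epsilon subunit, also had separate groups at 11.80, 12.06 and 12.06 in the WT and 11.38, 11.28 and 11.63 in the KO libraries, a difference of -0.55 ± 0.78 (SE; limma adjusted p 0.761), and was the second steadiest member with an SD of 0.33. The groups overlapped for the beta subunit and for a stalk subunit. Atp5b, the beta subunit, stood at 13.62, 9.55 and 11.33 in the WT and 14.01, 12.72 and 11.72 in the KO libraries. Atp5h, of the stalk, stood at 11.94, 14.67 and 12.45 in the WT and 12.03, 11.21 and 11.97 in the KO libraries.

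The 13 mitochondrial-encoded genes supply membrane subunits of complexes I, III, IV and V, and only mt-Nd6 is read from the minus strand. Neighbouring genes overlap on the genome. The end of mt-Atp8 and the start of mt-Atp6 share 43 bases, and mt-Nd4l and mt-Nd4 share 7. The end of mt-Atp6 also shares 1 base with mt-Co3. The first overlap lies in coding sequence of both genes on the plus strand at chrM:7927-7969 of GRCm38 and is printed in capitals with 30 bases on each side (chrM:7897-7999), because reads from it belong to both genes. How such reads were counted is not given in the sources used here, nor is the handling of nuclear copies of mitochondrial DNA.
mt-Atp8 and mt-Atp6: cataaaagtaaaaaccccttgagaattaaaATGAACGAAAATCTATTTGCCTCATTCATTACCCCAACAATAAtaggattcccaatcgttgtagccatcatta
Of the members, mt-Atp8, mt-Atp6, mt-Nd4l and mt-Nd4 had values that were not whole reads, and mt-Co3 and the others had none. Their 16 such values were each off by a shift of -4 to 5 log2 units, 12 of them downward, within a block of 75 neighbouring rows of the deposited table that held all 213 such values of 70 genes. The origin of the shifts was not tested.

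As deposited, the 4 genes had separate groups, all higher in the KO libraries. mt-Nd4l stood at 7.64, 6.53 and 7.99 in the WT and 9.80, 10.57 and 11.71 in the KO libraries. mt-Nd4 stood at 12.53, 11.96 and 12.24 in the WT and 13.59, 13.30 and 14.15 in the KO libraries. Both encode membrane subunits of complex I, and mt-Atp6 and mt-Atp8 encode subunits of complex V. mt-Atp6 stood at 12.51, 12.40 and 11.22 in the WT and 13.25, 13.71 and 13.18 in the KO libraries. mt-Atp8 stood at 10.60, 9.66 and 10.80 in the WT and 11.14, 11.90 and 11.84 in the KO libraries. The differences ran from 1.27 for mt-Atp8 to 3.31 for mt-Nd4l, with a limma adjusted p of 0.613 or more.

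With the shifts taken out, which puts each value back on a whole number of reads, mt-Nd4l stood at 9.64, 1.53 and 9.99 in the WT and 9.80, 9.57 and 11.71 in the KO libraries. mt-Nd4 stood at 13.53, 11.96 and 14.24 in the WT and 13.59, 13.30 and 15.15 in the KO libraries. The groups of both then overlapped. mt-Atp6 came to 14.51, 12.40 and 15.22 in the WT and 15.25, 14.71 and 14.58 in the KO libraries. mt-Atp8 came to 10.60, 10.66 and 10.80 in the WT and 12.14, 10.90 and 10.84 in the KO libraries. The groups overlapped for mt-Atp6, and those of mt-Atp8 stayed apart by a narrow margin. mt-Nd4l in WT-2 came to 1 read. The counts of members with separate groups became 8 higher and 6 lower.

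Among the other mitochondrial genes only mt-Nd2 had separate groups. It stood at 6.33, 10.96 and 0 in the WT and 12.59, 12.29 and 12.22 in the KO libraries, from 75, 1053 and 0 reads in the WT and 38464, 16030 and 979 in the KO libraries, a difference of 6.60 ± 2.38 (SE; limma p 0.0179, adjusted 0.613). The KO values lay close together and the WT values were spread widely below them. mt-Co1, the catalytic subunit of complex IV, stood at 15.53, 15.78 and 0 in the WT and 16.19, 16.02 and 10.04 in the KO libraries, listed at 0 in WT-3 and 216 reads in KO-3. mt-Nd3 stood at 0, 11.78 and 10.48 in the WT and 8.89, 10.91 and 11.73 in the KO libraries, listed at 0 in WT-1. In WT-3 the adjacent genes mt-Nd2 and mt-Co1 were both at 0, while mt-Nd1 before them and mt-Co2 after them were read.

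The remaining genes overlapped between the groups. mt-Nd1 stood at 14.78, 15.47 and 14.85 in the WT and 14.38, 13.78 and 15.12 in the KO libraries. mt-Co2 was at 13.96, 14.99 and 14.58 in the WT and 14.26, 13.74 and 14.92 in the KO libraries. mt-Co3 had 13.76, 15.23 and 14.78 in the WT and 14.65, 14.43 and 14.49 in the KO libraries. These 3 had SDs of 0.59, 0.51 and 0.48 over the 6 libraries. mt-Cytb, the core of complex III, stood at 13.70, 14.95 and 13.79 in the WT and 14.84, 13.75 and 13.32 in the KO libraries. mt-Nd5 was at 12.33, 12.57 and 12.27 in the WT and 12.47, 11.62 and 11.11 in the KO libraries. mt-Nd6, the minus strand gene, had 11.36, 12.83 and 10.43 in the WT and 10.56, 10.43 and 11.80 in the KO libraries. The lowest library was KO-3 for mt-Cytb and mt-Nd5 and WT-3 for mt-Nd6, where KO-2 was almost level with WT-3.

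**Figure D4:**
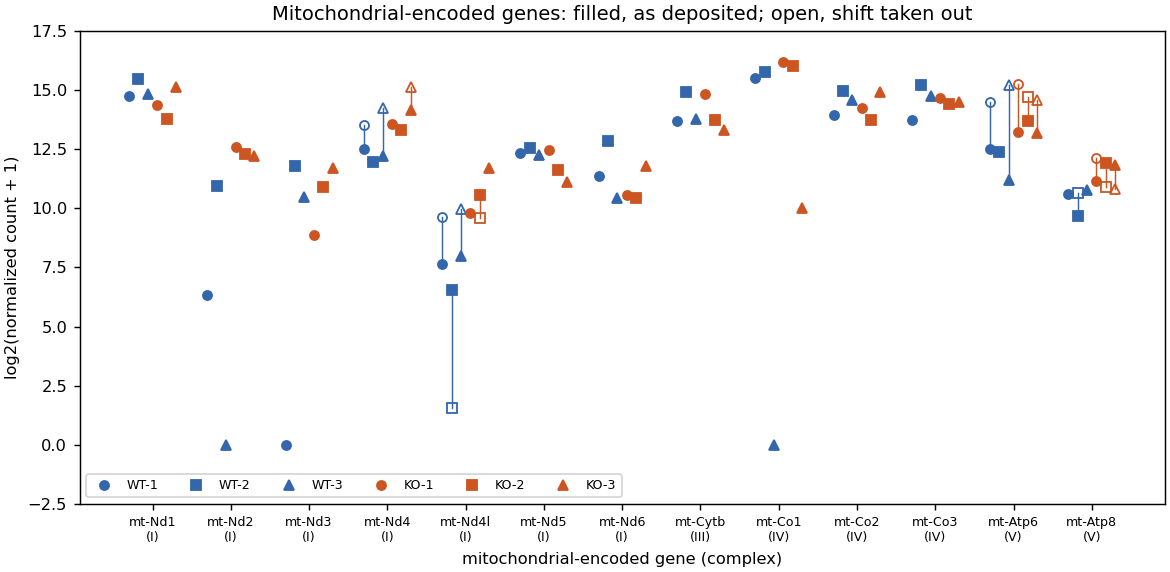
Level of the 13 mitochondrial-encoded genes (x axis, complex in brackets) in each library as log2(normalized count + 1), blue for WT and orange for KO, with a line to the open symbol where a shift was taken out. mt-Nd2, mt-Nd3 and mt-Co1 each have a WT library at 0, and open symbols move the WT values of mt-Nd4 and mt-Atp6 into the KO range.

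Per length, with shifts taken out, the mitochondrial genes spanned more than an order of magnitude. The median over the 6 libraries was 3392 reads per kilobase per 1000000 reads for mt-Atp6, 2678 for mt-Co3, 2677 for mt-Co2, 2628 for mt-Co1 and 2440 for mt-Nd1. Their ranges over libraries overlapped, for example 559 to 6322 for mt-Atp6 and 1531 to 3344 for mt-Nd1, so their order is not resolved. mt-Cytb followed at 1138, mt-Nd4 at 855 and mt-Atp8 at 628. The lowest were mt-Nd3 at 426, mt-Nd6 at 383, mt-Nd4l at 251, mt-Nd2 at 217 and mt-Nd5 at 209, and each gene in this order overlapped the next in its range over libraries. mt-Nd5 ran from 78.7 to 344 and so lay below every value of mt-Nd1, mt-Co2 and mt-Co3 in all 6 libraries.

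The members differed in how much they moved from library to library. Among genes with reads in all 6 libraries the median SD over libraries was 1.64 log2 units for 60 nuclear members, 0.76 for 10 mitochondrial members and 1.62 for all 3140 genes. An SD under 1 was found for 22 of the 60 (36.7%), 9 of the 10 (90%) and 28.6% of all genes. With the shifts taken out, the median SD of the 10 was 0.63 and 7 (70%) were under 1. Within the nuclear members the spread went with coding length. Over all 80, Spearman's rho between coding length and SD was 0.47 and Pearson's r on log2 length 0.42, and over the 60 with reads in all 6 libraries they were 0.58 and 0.54. These describe genes that share the same 6 libraries. The 40 members with the shorter coding sequences (median 304.5 bases) had a median SD of 1.07 and 14 members with a low value, and the 40 longer ones (median 637.5 bases) a median SD of 3.13 and 23 such members. Level moved with the spread too, with a rho of -0.65 between mean normalized value and SD, and the part of length apart from level was not tested.

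**Figure D5:**
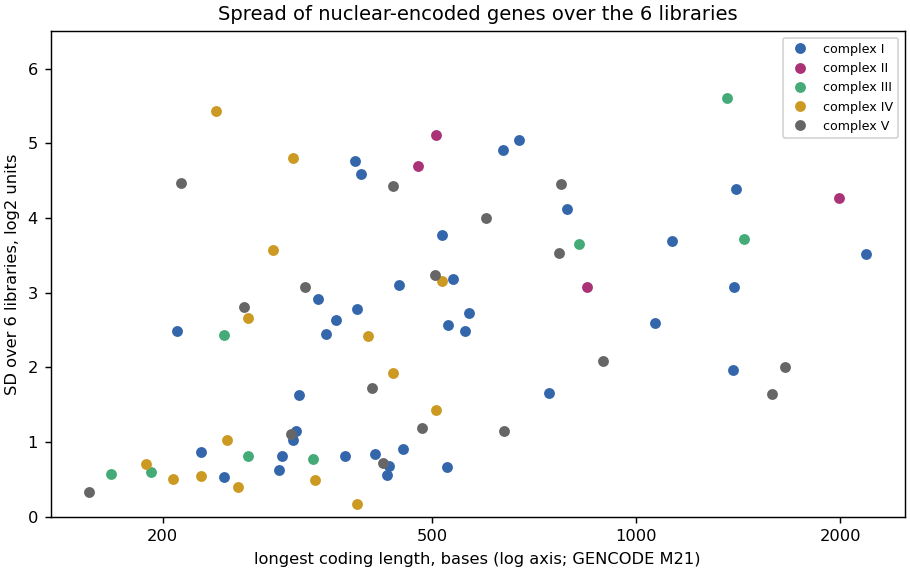
SD over the 6 libraries in log2 units (y axis) against the longest coding length in bases (x axis, log scale, GENCODE M21) for the 80 nuclear members, coloured by complex. The steadiest genes, such as Atp5e, Cox8a and Uqcr11, are short, and the points at the right, among them Atp5b with an SD of 1.65, all lie higher.

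Other genes of the pathway were described by lists. Some genes counted as higher were listed at 0 in all WT libraries and passed the filter through the KO libraries alone. These were Bcs1l, Cox16, Etfdh, Pnpt1 and Prkaa2, and among the cell type markers Gfi1 and Procr. A lower value in the KO libraries could not have been measured for them, and nothing is read from their direction. Others counted as higher were near the floor in the WT libraries. Sdhaf4 stood there at 1.04, 0 and 0, Coq2 at 2.07, 2.74 and 0, and the marker Esam at 2.88, 0 and 0. A lower value could hardly have been measured for these, and nothing is read from their direction either. Beside each list stand the 5.09% of all genes tested that were higher and the 0.493% that were lower before adjustment, their median of 1.63, or 0.61 at the floor, and the median of 0.03 over genes with reads in all 6 libraries. Counted in the same way before adjustment, 4 of 48 assembly factors were higher and none lower, with a median difference of 3.12, or 2.67 with the 10 genes listed at 0 in all WT libraries set to the floor of 3 reads. The 7 with reads in all 6 libraries had a median of -0.27, with 2 above 0 and 5 below. Bcs1l, which inserts the Rieske protein into complex III, was listed at 0 in the WT libraries and stood at 8.02, 8.52 and 7.78 in the KO libraries. Uqcc3, another complex III factor, stood at 8.65, 2.74 and 0 in the WT and 9.91, 10.95 and 12.55 in the KO libraries. Of the assembly factors 35, 15 and 17 were above 0 in the WT and 48, 43 and 20 in the KO libraries.

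Of 18 tested electron carrier and coenzyme Q genes 3 were higher and none lower, with a median of 3.75, or 3.07 at the floor, and 0.24 over the 3 with reads in all 6 libraries. Cyc1, cytochrome c1 of complex III, stood at 8.44, 4.57 and 0 in the WT and 11.56, 10.35 and 12.20 in the KO libraries, with WT-3 at 0. Cytochrome c itself, Cycs, stood at 10.91, 10.15 and 12.07 in the WT and 12.09, 10.55 and 6.75 in the KO libraries with overlapping groups. Etfdh, which feeds electrons from fatty acid oxidation to coenzyme Q, was listed at 0 in the WT libraries and stood at 8.30, 6.69 and 3.42 in the KO libraries.

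Of 41 tested genes for replication, transcription and RNA processing of mitochondrial DNA 1 was higher and none lower, with a median of 3.69, or 2.31 at the floor. The only one with reads in all 6 libraries, Ssbp1, lies in the block of 75 rows. The gene counted as higher, Pnpt1, an RNA-degrading exonuclease of mitochondria, was listed at 0 in the WT libraries. It stood at 7.81, 9.19 and 12.12 in the KO libraries. Polrmt, the mitochondrial RNA polymerase, and Lrpprc, which stabilizes mitochondrial messenger RNA, had reads in KO-1 and KO-2 alone, at 7.05 and 7.13 and at 4.66 and 6.96. Tfam, which packages mitochondrial DNA, stood at 7.45, 2.74 and 0 in the WT and 10.13, 8.86 and 0 in the KO libraries. Of this list 23, 9 and 9 genes were above 0 in the WT and 42, 37 and 6 in the KO libraries.

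Regulators gave 1 higher and none lower of 18 tested, with a median of 2.40, or 2.29 at the floor, and 3.09 over the 3 with reads in all 6 libraries. Nrf1 had reads in KO-1 and KO-2 alone, at 8.28 in each, Gabpa stood at 7.70, 0 and 2.31 in the WT and 6.88, 9.07 and 0 in the KO libraries and Ppargc1a, a coactivator of mitochondrial biogenesis, at 0, 0 and 9.37 in the WT and 4.54, 5.12 and 0 in the KO libraries. Prkaa2, a catalytic subunit of the energy sensor AMPK, was listed at 0 in the WT libraries and stood at 5.52, 7.31 and 9.14 in the KO libraries. Hif1a, a regulator of the response to low oxygen, stood at 8.44, 0 and 0 in the WT and 7.15, 8.27 and 4.35 in the KO libraries. Energy transfer and uncoupling genes gave 1 higher and none lower of 13, with a median of 1.04, the same over the 9 with reads in all 6 libraries. That gene, Ucp2, a carrier of the mitochondrial inner membrane, stood at 10.57, 3.84 and 5.41 in the WT and 12.45, 11.68 and 11.65 in the KO libraries, and the ADP/ATP carrier Slc25a4 at 4.08, 0 and 11.02 in the WT and 11.21, 9.60 and 8.39 in the KO libraries.

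Markers of other blood cells differed between the libraries, with none past the adjusted threshold. Of 17 granulocyte and neutrophil markers 11 were lower and 1 higher by the same count, with a median of -4.65, or -4.93 over the 10 with reads in all 6 libraries. Mpo, the myeloperoxidase of granules, stood at 13.71, 12.50 and 12.43 in the WT and 8.25, 9.22 and 8.24 in the KO libraries, and Gfi1, a transcription factor also used by stem cells, was listed at 0 in the WT libraries and stood at 6.93, 8.01 and 8.81 in the KO libraries. Of 14 monocyte and macrophage markers 3 were lower and none higher, with a median of -3.08, or -2.17 at the floor, and -3.23 over the 6 with reads in all 6 libraries. Klf4 stood at 7.92, 10.66 and 11.37 in the WT and 2.02, 7.58 and 0 in the KO libraries. Ccr2 lies in the block of 75 rows with shifted values, and its level is not given. The list took 0.861%, 0.918% and 0.405% of reads in the WT and 0.117%, 0.286% and 0.951% in the KO libraries, with Cd68 and Fcgr1 at 0 in all WT libraries and in 2 KO libraries each. Erythroid markers gave none of 10 in either direction, with a median of -1.71, or -1.001 at the floor, -2.35 over the 6 with reads in all 6 libraries, and 0.114% to 0.447% of reads in the WT and 0.136% to 0.241% in the KO libraries. Hba-a1 stood at 14.33, 11.86 and 13.20 in the WT and 7.82, 9.89 and 13.73 in the KO libraries. Hbb-bs stood at 13.43, 12.05 and 10.65 in the WT and 9.20, 8.93 and 11.82 in the KO libraries, and Epor had reads in KO-1 alone. Only 3 B cell and T cell markers could be tested, with none in either direction, a median of 1.55, or -0.98 at the floor, and at most 0.0135% of reads in any library and Cd79a, Cd79b, Rag2 and Vpreb1 at 0 in all WT libraries and in 2 KO libraries each. Cd3d had reads in WT-3 alone, at 10.85, and Cd79b in KO-1 alone, at 10.26.

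The sorted cell type was only partly visible in the WT libraries. Of 18 stem cell markers 9, 9 and 8 were above 0 in the WT and 18, 17 and 10 in the KO libraries, and Slamf1, the gene of the sorted CD150, was at 0 in all WT libraries and in KO-2 and KO-3, with 6.71 in KO-1. Procr, Fgd5, Hoxb5, Tek, Vwf and Ctnnal1 were also at 0 in all WT libraries, and all of these but Procr in KO-3 too. Of the list 2 were higher and none lower, with a median of 3.36, or 1.96 at the floor, and 1.01 over the 4 with reads in all 6 libraries. Esam stood at 2.88, 0 and 0 in the WT and 9.73, 11.08 and 3.42 in the KO libraries, and Procr at 9.06, 3.41 and 3.96 in the KO libraries. The part of these marker differences in the respiratory chain values was not tested.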

How the data were processed

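RNA of sorted haematopoietic stem cells was sequenced in 6 libraries, 3 labelled Zfp521fl/fl and 3 labelled Zfp521-CKO. Per the labels, RNA was extracted with the RNeasy Micro kit. Bowtie, DESeq2 1.26.0 and the build mm9 appear in the submitters' processing notes, without a role for each, and neither the strand setting nor the counting rule is stated.

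The deposited values are log2(normalized count + 1), not divided by gene length, although the table is named for a length-scaled unit. They were used as deposited, with reads recovered from them for depth, shares and per-length levels, where 213 values in 70 genes were first put back on whole reads (tolerance 0.0001). Total reads ranged from 3162574 to 56435472, and 3 reads corresponded to 0.57 in KO-1 and 3.96 in KO-3, so values near or below these are poorly resolved.

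The main test was limma 3.58.1 in R 4.3.3 (two-sided, variance trend fitted by eBayes) on 16436 genes with a mean normalized count of at least 1, with Benjamini-Hochberg adjustment at 0.05. Its code was run on simulated counts whose spread was not matched to these libraries. That run cannot show how many true differences the test would find here. Sums and ratios over members carry no test. Named were all mitochondrial-encoded members; in each nuclear complex the 3 with the smallest p, the 3 with the highest mean normalized count and those with separate groups; tissue isoforms; and from each other list the 2 smallest p plus fixed regulators. Not all are quoted with values, and some results are not reported here. The members, gene lists and tests were chosen with earlier results of these data known. Alternatives were other pseudocounts, filters, scalings, library weights, voom, a replicate block, shifts taken out, leaving out the block of 75 rows, and each library left out; the ratio without mt-Co1 and the list medians at a floor of 3 reads were added after seeing the data. Promoter windows are from RefSeq (GRCm38.p6), coding lengths from GENCODE M21 and mitochondrial coordinates from GRCm38; no coordinates of mm9 were used.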

Additional observations from a re-analysis of the deposited data

How the results depend on the processing

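Genes called at an adjusted p of 0.05 went from 0 to 17 with quantile normalization, 1660 with library weights and 164 with voom, and from 0 to 2509 over the fits that left out 1 library, where only the fit without KO-3 made calls. Single members called went from 0 to 1 with quantile normalization (mt-Co1), 2 with library weights, and 0 to 5 with 1 library left out. Members at an unadjusted p under 0.05 went from 12 to 6 in genes with reads in all 6 libraries, 19 with library weights and 4 to 13 with 1 library left out. The share of all genes at such a p went from 5.58% to 8.34%, 27.0% and 3.01% to 23.0% in the same settings. With shifts taken out 10 members and 5.45% of all genes had such a p. The mitochondrial median went from 1.27 to -0.12 in genes with reads in all 6 libraries, 0.61 with shifts taken out, -0.18 without the block of 75 rows and -0.40 to 1.41 with 1 library left out. The nuclear median (0.18 to 1.07) and the log2 ratio of mitochondrial to nuclear reads (0.00 to 0.24) moved by less than the spread between libraries with 1 library left out. Removing the block of 75 rows drops 4 mitochondrial genes; other causes were not tested.

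Of 44 named members 31 kept their sign under every alternative that gave them a value and 13 did not, and no direction is given for the latter. The 31 include Cox4i2 and Cox7a1, at 0 in all WT libraries, and Cox6b2, at 2.66, 0 and 0 there. Their sign could hardly have reversed, so nothing is read from its being kept. Members listed at 0 in a library, in the block of 75 rows or under a mean of 100 got no value where these were left out. With quantile normalization Cox6c was at 0.035, Uqcrb 0.32, Ndufb7 0.25, mt-Co2 0.086, mt-Co3 0.23 and mt-Cytb 0.23. With scaling to a total of 1000000 they were at 0.10, 0.26, 0.23, 0.075, 0.21 and 0.10. With voom Cox6c was at 0.085, Uqcrb 0.61, mt-Co2 0.27, mt-Co3 0.68, mt-Nd5 0.25 and mt-Cytb 1.04. With library weights Uqcrb was at 0.011, Cox6a1 -0.41 and Sdha 0.78, and with median-ratio scaling Cox6a1 at -0.020. With 1 library left out the ranges were -0.39 to 0.35 for Cox6a1, -3.66 to 0.79 for Cox6a2, -0.43 to 0.24 for Cox6c, -0.61 to 0.44 for Ndufb7, -4.71 to 1.05 for Sdha, -0.63 to 0.53 for Uqcrb, -1.57 to 6.32 for mt-Co1, -0.51 to 0.078 for mt-Co2, -0.48 to 0.25 for mt-Co3, -0.62 to 0.22 for mt-Cytb, -0.62 to 5.27 for mt-Nd3 and -1.17 to 0.031 for mt-Nd6.

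With the replicate number as a block, 0 genes were called, and the medians were unchanged at 0.53 and 1.27. In that fit 13 members and 5.77% of all genes had an unadjusted p under 0.05. Deviations from the group means were hardly correlated between same-numbered libraries (0.03, -0.04 and 0.006). Pairs with unlike numbers reached -0.04 and 0.04. With libraries this unlike in depth and in missing genes, such values cannot tell whether the numbers pair the libraries.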

Other observations

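The pseudogene rows left out of the members also had reads, and are described here by their values only. Atp5l2-ps stood at 7.79, 8.99 and 8.66 in the WT and 7.34, 7.54 and 6.11 in the KO libraries, and Atp5l-ps1 at 6.11, 7.29 and 7.19 in the WT and 5.65, 5.87 and 3.96 in the KO libraries. All KO values were below all WT values in both. Atp5l-ps2 stood at 5.67, 6.55 and 5.97 in the WT and 4.63, 4.59 and 3.96 in the KO libraries, again without overlap. Of all genes tested 2.05% had all KO values below all WT values. These pseudogene rows had reads in all 6 libraries, and among genes with such reads the share was 7.13%. The groups overlapped in the other 3 rows. Uqcrh-ps2 stood at 3.40, 4.02 and 3.69 in the WT and 2.86, 3.19 and 3.42 in the KO libraries. Uqcrh-ps1 stood at 4.08, 3.39 and 2.31 in the WT and 1.84, 2.34 and 0 in the KO libraries, and Atp5k-ps2 at 2.66, 0 and 2.80 in the WT and 2.86, 2.504 and 4.35 in the KO libraries. Atp5l, the gene that Atp5l-ps1 and Atp5l-ps2 are named for and a membrane subunit of complex V, had means of 12.65 ± 0.75 and 11.14 ± 0.89 (SD, n = 3) with overlapping groups. Near-identical copies share reads, and how these were split is not given in the sources used here, so the values of such pairs are uncertain.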
